A study of Mus musculus with 14 samples.

Results

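The genes described here are 34 mouse genes for the enzymes that bring pyruvate into the mitochondrion and run the tricarboxylic acid (TCA) cycle, with the enzymes that feed carbon into the cycle, draw it off or shuttle its reducing power. They were chosen by symbol, not by a threshold on their values, and all 34 were found among the 15119 genes of the table and passed the filter on low values. RNA was measured in GFP-positive cells of the dentate gyrus, sorted by the fluorescence of dihydroethidium, a dye that oxidants such as superoxide convert, into classes of low to high reactive oxygen species (ROS). The classes are named ROS+, with 5 libraries, ROS++, also with 5, and ROS+++, with 4. The mice of all 3 classes were B6.Cg-Tg(Nes-EGFP)1Yamm, kept under standard housing with no treatment, and the classes differ in the labels only by the dye gate. In this strain Nestin regulatory elements drive the fluorescent protein, so the gate takes any cell in which those elements are active. The age and sex of the mice, and whether animals were pooled, are not given in the labels.

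Pyruvate from glycolysis crosses the inner mitochondrial membrane through the mitochondrial pyruvate carrier and is either oxidised to acetyl-CoA by the pyruvate dehydrogenase (PDH) complex or carboxylated to oxaloacetate by pyruvate carboxylase. PDH kinases switch the complex off by phosphorylation and PDH phosphatases switch it back on. In the brain, pyruvate carboxylase is largely an astrocyte enzyme, glutamate dehydrogenase links glutamate to the cycle, and the malate-aspartate shuttle carries reducing equivalents from cytosol to mitochondrion.

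Recovered reads ranged from 20832009 to 25313902 for the ROS+ libraries, from 18325361 to 23454022 for ROS++ and from 12704227 to 20998589 for ROS+++. The 10 most abundant genes took 5.81 to 6.96%, 5.62 to 7.23% and 11.2 to 12.1% of the reads in ROS+, ROS++ and ROS+++. Levels are therefore given as CPM, reads scaled to a common library total, and changes also with TMM factors, which rescale each library to the bulk of its genes. TMM shifted the median change of all genes in ROS+++ against ROS+ by 0.34 on the log2 scale, and in ROS+++ against ROS++ by 0.29. A count of 0 allows up to 3 reads, which is 0.119 to 0.236 CPM depending on the library and covers counting error only. Nothing in the labels ties a replicate to an animal or culture of its own, so the p-values speak only to the scatter among these libraries, part of which may be technical.

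Nestin itself (Nes) was detected in every library, at medians of 14.8, 90.0 and 225 CPM in ROS+, ROS++ and ROS+++. Markers of several cell types moved with the classes. The summed level of 14 mural cell markers was 202 to 722 CPM in ROS+ libraries, 7869 to 23141 CPM in ROS++ and 51706 to 59360 CPM in ROS+++, and all 14 rose in ROS++ and in ROS+++ against ROS+. The summed level of 13 neuronal commitment markers was 12755 to 18181 CPM in ROS+, 1479 to 2966 CPM in ROS++ and 48.1 to 278 CPM in ROS+++, with 10 of 13 lower in ROS++ and 13 of 13 lower in ROS+++ against ROS+. The 15 microglia and macrophage markers summed to 4.97 to 19.5, 1030 to 2634 and 781 to 3181 CPM in the same order of classes, and the 9 mature astrocyte markers to 684 to 1018, 1699 to 2578 and 1845 to 2894 CPM. The 12 radial glia-like stem cell markers summed to 1010 to 1603, 5236 to 7477 and 2596 to 5786 CPM, and the 8 oligodendrocyte lineage markers to 2495 to 5878, 3333 to 9547 and 331 to 647 CPM. The 10 endothelial markers reached 98.0 to 274, 29.1 to 334 and 393 to 700 CPM, and the 12 cell cycle genes 254 to 596, 714 to 1347 and 119 to 252 CPM. Against ROS+, the markers that rose were 15 of 15 microglial in each upper class, 8 of 9 astrocyte in each, 11 of 12 radial glia-like in ROS++ and 9 of 12 in ROS+++. In ROS+++, 1 of 9 astrocyte and 2 of 12 radial glia-like markers fell. Of the oligodendrocyte lineage markers, 1 of 8 rose in ROS++ and 6 of 8 fell in ROS+++, and of the cell cycle genes, 8 of 12 rose in ROS++ and 7 of 12 fell in ROS+++. Endothelial markers rose in 1 of 10 and 5 of 10 cases in ROS++ and ROS+++. These marker counts are calls at an adjusted p under 0.05 with library totals. Of all tested genes, 16.4% rose and 13.2% fell in ROS++ against ROS+, and 19.2% rose and 40.0% fell in ROS+++ against ROS+. In ROS+++ the neuronal marker Neurod4 had 3 reads or fewer in every library. The part of these cell types in the changes below was not tested, and in bulk samples fewer cells of a type and less RNA per cell cannot be told apart.

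As a group, the 34 genes took a similar share of the reads in every class, while single enzymes changed by up to several fold. Their summed level was 4344 to 4891 CPM in ROS+ libraries, 4538 to 5312 CPM in ROS++ and 4613 to 4929 CPM in ROS+++, with overlapping ranges. With TMM factors the sums were 3937 to 4568, 4069 to 5367 and 5347 to 6083 CPM, so the statement on ROS+++ depends on the scaling. Per kilobase of exon, mitochondrial malate dehydrogenase Mdh2 had the highest level in each class, at 588, 533 and 512 CPM per kb in ROS+, ROS++ and ROS+++. Cytosolic malate dehydrogenase Mdh1 came second in each class, at 243, 353 and 369 CPM per kb. The lowest level per kb was that of PDH kinase 4 (Pdk4) in ROS+ and ROS++, at 0.300 and 2.66 CPM per kb, and of cytosolic malic enzyme (Me1) in ROS+++, at 1.11 CPM per kb.

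Any difference among the classes, by limma's F-test, was called for 17 of the 34 genes, beside 61.5% of all tested genes. In ROS++ against ROS+, 8 of the 34 genes rose and 1 fell at an adjusted p under 0.05, where 16.4% of all tested genes rose and 13.2% fell. The 8 were Mpc1, Pdk4, Suclg1, Suclg2, Idh2, Pcx, Mdh1 and Glud1, and the gene that fell was the PDH phosphatase Pdp1. The same 9 were called under each of 4 library scalings. The shares of all genes that rose and fell were 17.0% and 11.7% with TMM factors, 16.5% and 12.3% with relative log expression factors, and 16.5% and 12.5% with upper-quartile factors. The median change of the 34 was 0.16 on the log2 scale, beside -0.03 for all tested genes.

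Against ROS+, 9 members rose and 7 fell in ROS+++, where 19.2% of all genes rose and 40.0% fell. The genes that rose were Pdha1, Pdk4, Suclg1, Suclg2, Sucla2, Idh2, Pcx, Mdh1 and Glud1, and the genes that fell were Pdhb, Pdhx, Pdp1, Idh3a, Idh1, Me1 and Me2. With TMM factors 14 rose and 3 fell, against 25.3% and 27.5% of all genes. Relative log expression and upper-quartile factors gave the same counts of 14 and 3, against 26.5% and 25.9% of all genes with the first and 23.5% and 30.1% with the second. All 9 higher calls held under the 4 scalings, but of the 7 lower calls only Pdhx, Pdp1 and Me1 did. The median change of the members was 0.04 with library totals (all genes -0.44) and 0.42 with TMM factors (all genes -0.10).

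Between the 2 upper classes the balance of calls turned on the scaling. With library totals 1 member rose and 9 fell in ROS+++ against ROS++, where 9.89% of all genes rose and 29.2% fell, but 7 rose and 2 fell with TMM factors, against 16.3% and 18.8%. Relative log expression factors gave 8 higher and 2 lower, against 18.7% and 17.1% of all genes, and upper-quartile factors 6 and 3, against 14.8% and 20.1%. Under all 4 scalings, Sucla2 rose and Pdp1 and Me1 fell. The medians were -0.24 for the members and -0.34 for all genes with library totals, and 0.08 and -0.04 with TMM factors. Pdk4, Suclg1, Suclg2, Idh2, Pcx, Mdh1 and Glud1 were above ROS+ in both upper classes under all 4 scalings, and Pdp1 was below ROS+ in both. The 3 comparisons share libraries in pairs, so they are not independent of each other.

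**Figure D1:**
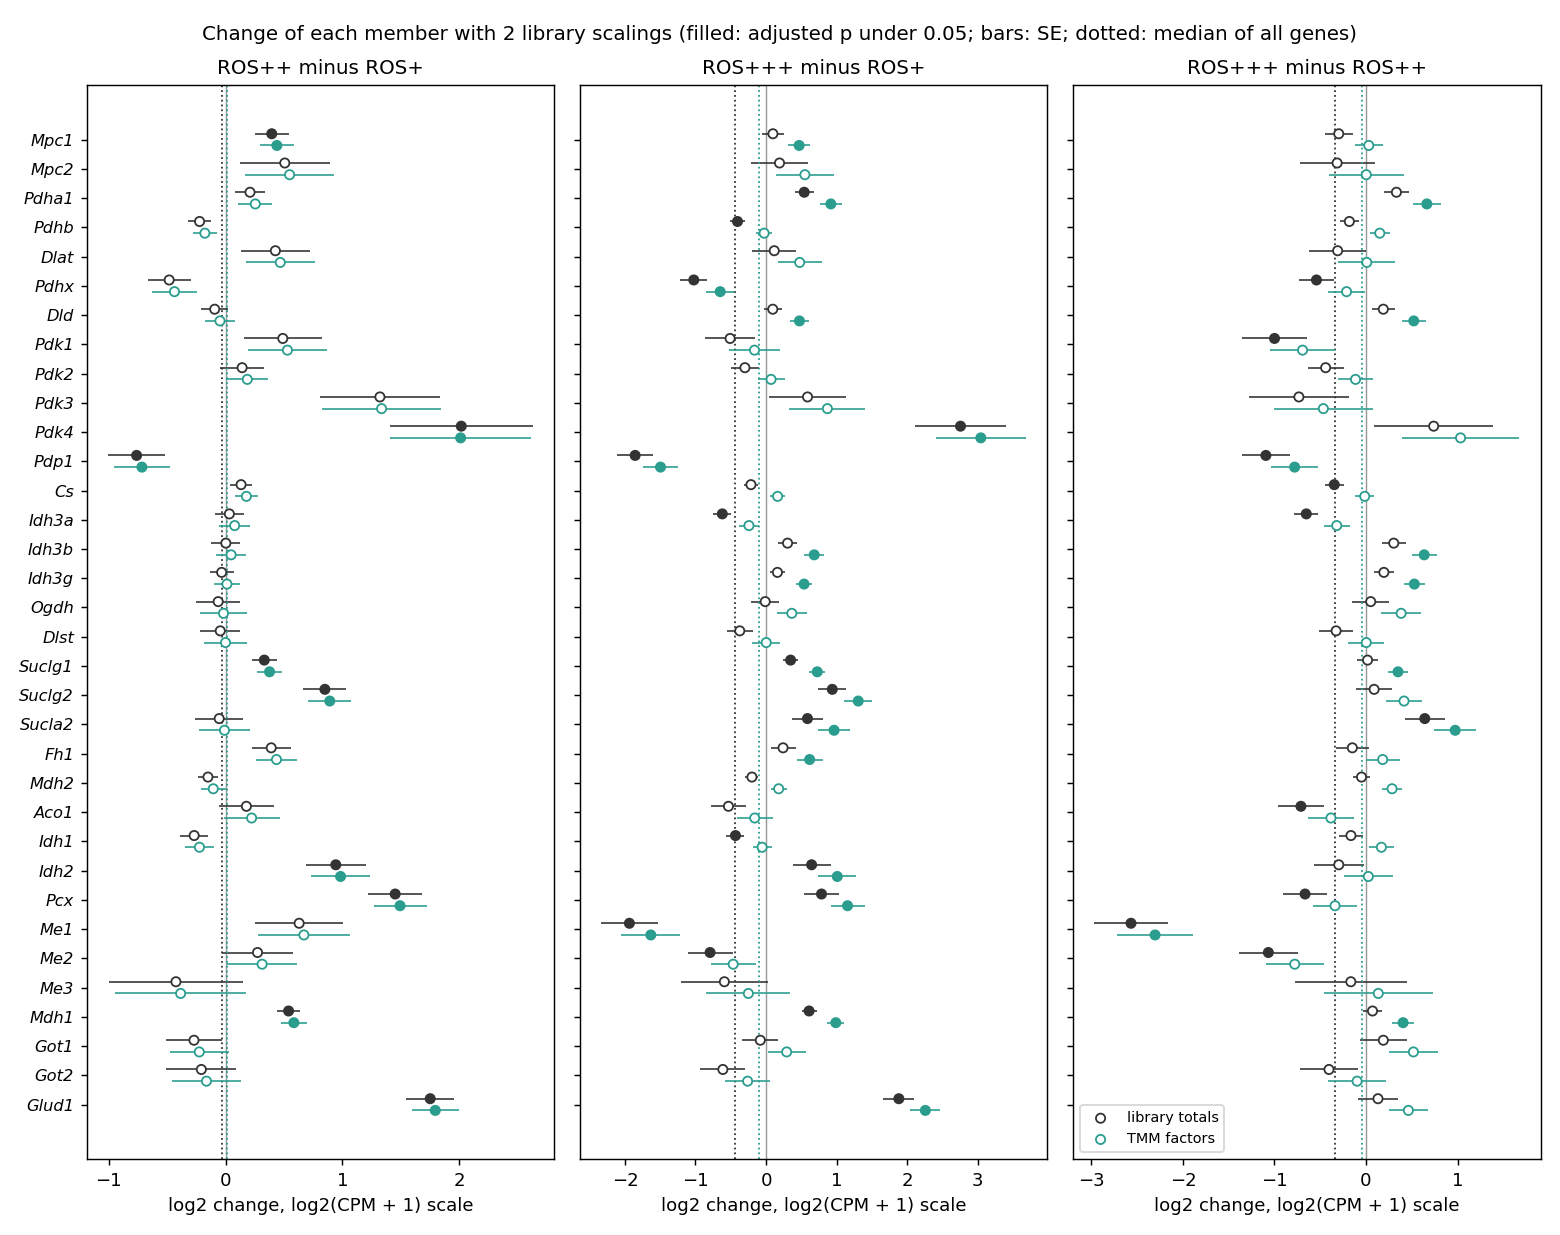
Change of each of the 34 genes on the log2(CPM + 1) scale in the 3 comparisons, with library totals (black) and TMM factors (green). Bars are standard errors, filled points have an adjusted p under 0.05 and dotted lines mark the median of all tested genes. The scalings nearly coincide in ROS++ minus ROS+ and shift apart in both comparisons of ROS+++.

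**Figure D2:**
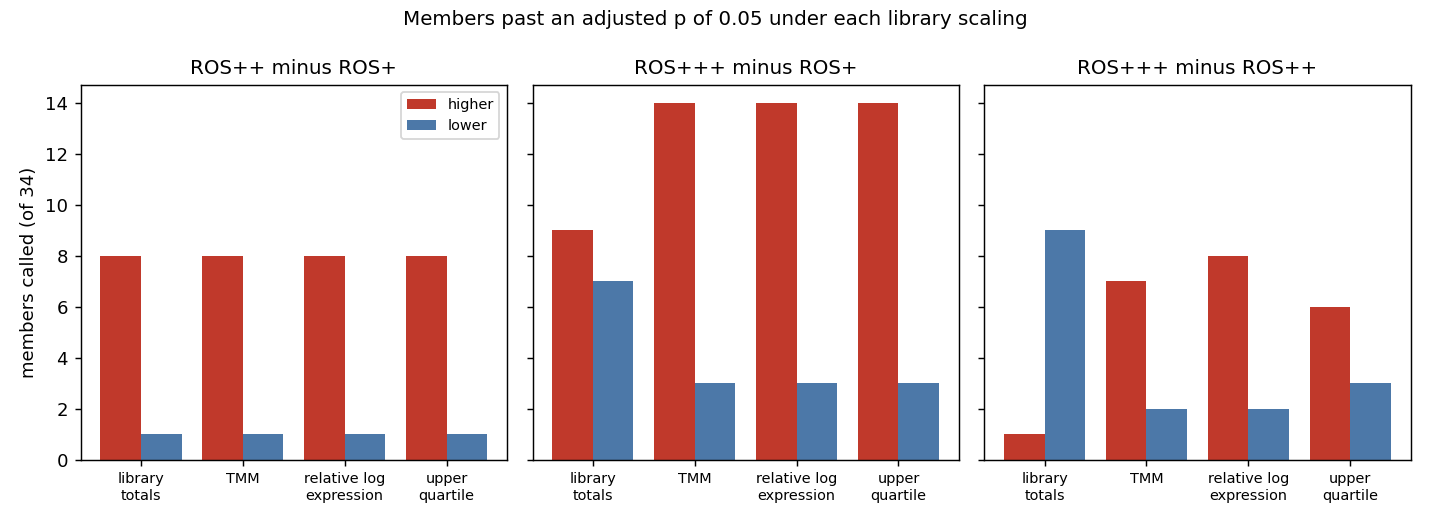
Number of the 34 genes that rose (red) or fell (blue) at an adjusted p under 0.05 in each comparison under 4 library scalings. The ROS++ against ROS+ counts are 8 and 1 under each scaling, while those of ROS+++ change with the scaling.

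Promoter windows are shown for 3 genes that the results turn on: Pdk4 and Me1, with the largest positive and negative change of the 34 in ROS+++ against ROS+, and Glud1, with the smallest adjusted p of the 34 in each upper class against ROS+. Each is the 250 bases before the RefSeq start, on build GRCm38.p6, written 5′ to 3′ on the gene's strand with CpG dinucleotides in capitals. The Pdk4 window lies at chr6:5496279-5496528 on the minus strand, the Glud1 window at chr14:34310477-34310726 on the plus strand and the Me1 window at chr9:86695915-86696164 on the minus strand.
Pdk4: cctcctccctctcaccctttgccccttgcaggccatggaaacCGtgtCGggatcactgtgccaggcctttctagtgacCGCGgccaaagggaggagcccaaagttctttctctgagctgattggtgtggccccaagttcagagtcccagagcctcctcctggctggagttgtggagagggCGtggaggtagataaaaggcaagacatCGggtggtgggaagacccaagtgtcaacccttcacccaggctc
Glud1: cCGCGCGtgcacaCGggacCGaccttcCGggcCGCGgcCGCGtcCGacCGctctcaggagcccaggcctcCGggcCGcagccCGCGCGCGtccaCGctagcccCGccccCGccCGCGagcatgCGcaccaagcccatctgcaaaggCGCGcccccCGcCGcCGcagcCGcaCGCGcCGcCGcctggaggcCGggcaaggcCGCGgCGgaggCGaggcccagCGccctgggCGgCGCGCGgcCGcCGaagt
Me1: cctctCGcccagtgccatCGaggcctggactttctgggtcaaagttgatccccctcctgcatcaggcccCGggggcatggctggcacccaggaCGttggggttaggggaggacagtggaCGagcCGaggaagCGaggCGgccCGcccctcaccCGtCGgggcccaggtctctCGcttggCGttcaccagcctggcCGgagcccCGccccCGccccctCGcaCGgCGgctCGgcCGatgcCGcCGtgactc
The 3 windows differ in CpG content. Pdk4 has 6 CpG, the fewest of the 31 members with a window, Me1 has 23 and Glud1 has 46, the most. The median was 18 over the members and 6 over all 32851 windows of the table. Pdp1, Idh3a and Me2 had no window in the table.

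Short motifs were searched on both strands of the 31 windows. The antioxidant response element core TGACNNNGC was found in 3 members and in 10.2% of all windows. The estrogen-related receptor half-site AAGGTCA was found in the window of 1 member, Got1, and in 4.08% of all windows. The forkhead letters GTAAACA and the palindromic core of the NRF1 motif were in none of the members' windows, and in 3.17% and 0.782% of all windows. The letters TATAAA were in 1 member's window, that of Got2, and in 12.4% of all windows. The letters ATAAAA, which can overlap TATAAA, were in the windows of Pdk4, Dld and Got1, and in 17.0% of all windows. A match is a run of letters and not a measured binding site, and none of these shares was tested.

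Glutamate dehydrogenase and pyruvate carboxylase, which feed glutamate and pyruvate carbon into the cycle, rose in both upper classes against ROS+. Glud1 (ENSMUSG00000021794, chromosome 14, 34310727 to 34345265) had 52.3, 38.1, 51.7, 56.0 and 47.9 CPM in the ROS+ libraries. It had 169, 187, 245, 190 and 87.4 CPM in ROS++ and 176, 157, 195 and 208 CPM in ROS+++. Every ROS++ and ROS+++ library lay above every ROS+ library, and the lowest of the ROS++ libraries was replicate 5. That library also had the lowest summed mural (7869 CPM), mature astrocyte (1699 CPM), radial glia-like (5236 CPM), oligodendrocyte lineage (3333 CPM) and endothelial (29.1 CPM) markers of its class. Its neuronal commitment sum was the highest of the class, at 2966 CPM against 1479 to 2352 CPM. Its microglia and macrophage sum (1295 CPM) and cell cycle sum (1245 CPM) lay within the range of the other ROS++ libraries. The part of these markers in its Glud1 level was not tested. Glud1 rose by 1.75 ± 0.21 (SE) on the log2 scale in ROS++ against ROS+ (limma, adjusted p 4.37e-06) and by 1.88 ± 0.22 in ROS+++ against ROS+ (adjusted p 1.03e-06). The difference between ROS+++ and ROS++ was 0.13 ± 0.22 with an adjusted p of 0.666.

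Pyruvate carboxylase Pcx (ENSMUSG00000024892, chromosome 19, 4510472 to 4621752), which makes oxaloacetate from pyruvate, had its highest mean in the middle class. It had 38.0, 29.6, 20.4, 25.8 and 21.0 CPM in ROS+ libraries, 90.0, 69.7, 77.3, 76.9 and 57.8 CPM in ROS++ libraries, and 67.1, 39.4, 30.1 and 56.2 CPM in ROS+++. The ROS++ libraries all lay above the ROS+ libraries, and the ROS+++ libraries overlapped both other classes. Pcx rose by 1.45 ± 0.23 in ROS++ against ROS+ (adjusted p 0.000103) and by 0.79 ± 0.24 in ROS+++ against ROS+ (adjusted p 0.00976). Between the upper classes it fell by 0.67 ± 0.24 (adjusted p 0.0369), a call that ended under each of the other 3 scalings (adjusted p 0.302 with TMM factors). It also ended without any one of 6 libraries, ROS++ replicates 1 to 4 and ROS+++ replicates 2 and 3, with adjusted p of 0.0527 to 0.144.

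The malic enzymes, which turn malate into pyruvate, had their lowest means in ROS+++. Me1, the cytosolic NADPH-producing form (ENSMUSG00000032418, chromosome 9, 86581371 to 86695953), had 16.5, 13.5, 12.8, 17.7 and 15.2 CPM in ROS+ and 19.6, 24.1, 27.5, 25.5 and 23.1 CPM in ROS++. In ROS+++ it had 4.20, 6.23, 5.24 and 0.315 CPM, the last from 4 reads. The ROS+++ libraries lay below both other classes and the ROS++ libraries above ROS+, although the ROS++ against ROS+ difference of 0.63 ± 0.38 did not pass the test (adjusted p 0.230). Me1 fell by 1.94 ± 0.40 in ROS+++ against ROS+ (adjusted p 0.000473) and fell by 2.57 ± 0.40 in ROS+++ against ROS++ (adjusted p 7.31e-05), in each case under all 4 scalings. The mitochondrial form Me2 averaged 9.52, 12.0 and 5.19 CPM over ROS+, ROS++ and ROS+++. Me2 fell by 0.79 ± 0.32 in ROS+++ against ROS+ (adjusted p 0.0402) and fell by 1.07 ± 0.32 in ROS+++ against ROS++ (adjusted p 0.0129), but neither call held with TMM factors (adjusted p 0.229 and 0.0651). Mitochondrial Me3 ranged widely within the classes, with means of 13.6, 13.7 and 9.47 CPM, and passed no comparison.

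**Figure D3:**
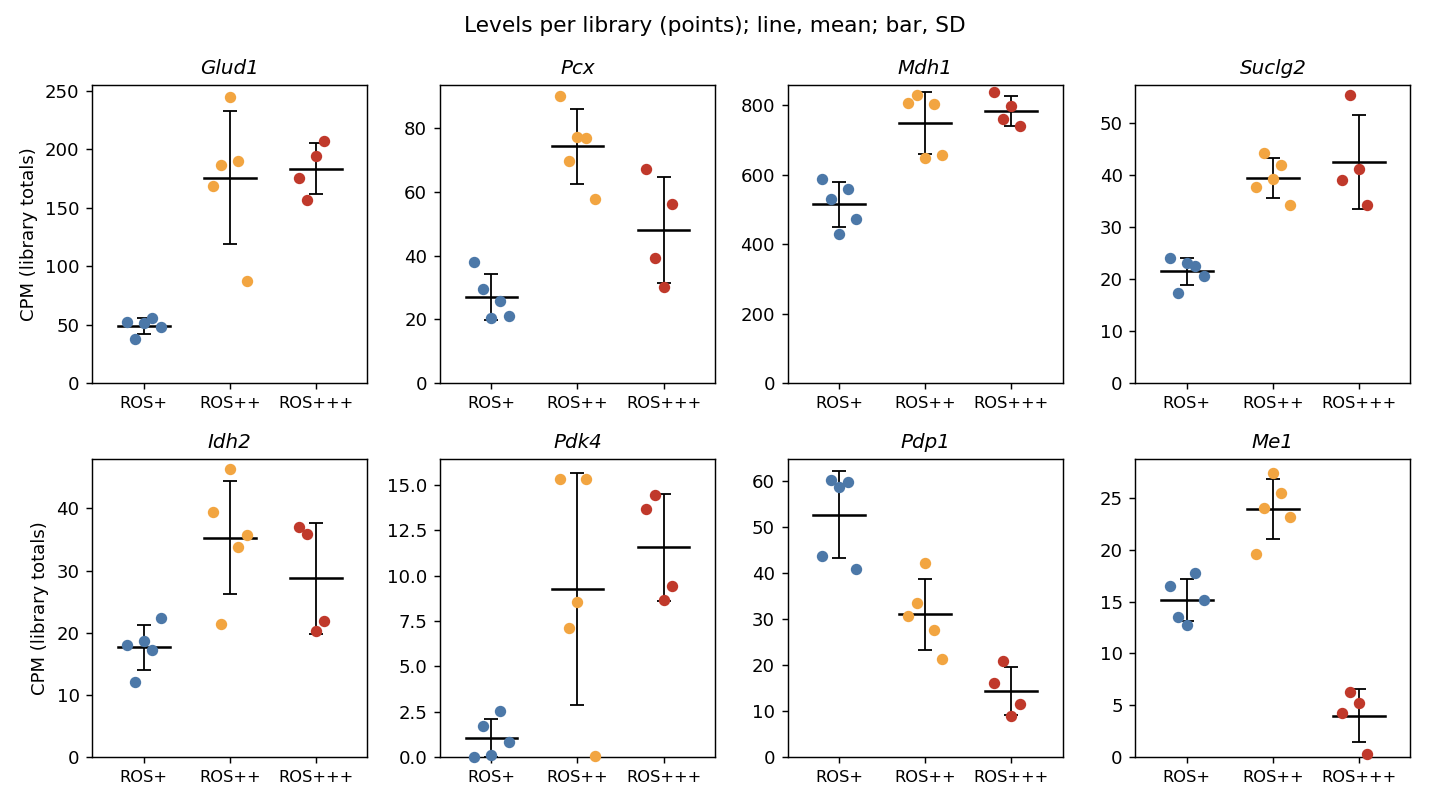
Level of 8 of the genes in CPM of library totals, one point per library, with the class mean (line) and SD (bar) for 5 ROS+, 5 ROS++ and 4 ROS+++ libraries. Glud1, Mdh1 and Suclg2 show no overlap between ROS+ and either upper class, and Me1 in ROS+++ lies below both other classes.

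Of the genes that take pyruvate into the mitochondrion and oxidise it, the subunits of the PDH complex did not move together with library totals. Pdha1, the catalytic alpha subunit, had 157, 181, 166, 142 and 149 CPM in ROS+ libraries, 200, 181, 159, 226 and 159 CPM in ROS++ libraries, and 243, 214, 283 and 193 CPM in ROS+++. The ROS+++ libraries lay above all ROS+ libraries, and Pdha1 rose by 0.54 ± 0.14 in that comparison (adjusted p 0.00246). Pdhb, the beta subunit, averaged 261, 225 and 197 CPM in ROS+, ROS++ and ROS+++, and fell by 0.40 ± 0.11 in ROS+++ against ROS+ (adjusted p 0.00332). With TMM factors the Pdhb difference was -0.03 with an adjusted p of 0.859. Pdhx, which anchors the E3 subunit in the complex, had 127, 145, 121, 105 and 91.1 CPM in ROS+ libraries, 83.7, 124, 70.0, 64.6 and 84.1 CPM in ROS++ libraries, and 65.6, 44.8, 66.5 and 53.1 CPM in ROS+++. Pdhx fell by 1.02 ± 0.19 in ROS+++ against ROS+ (adjusted p 0.000213) and, with TMM factors, by 0.65 ± 0.20 (adjusted p 0.0110). Its ROS+++ libraries all lay below the ROS+ libraries in CPM of library totals, but not with TMM factors.

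The other 4 genes of pyruvate entry passed fewer tests. The E2 subunit gene Dlat averaged 18.6, 24.9 and 20.7 CPM and the E3 subunit gene Dld 229, 216 and 246 CPM in ROS+, ROS++ and ROS+++, and neither passed a comparison with library totals. Dld rose with TMM factors by 0.47 ± 0.13 in ROS+++ against ROS+ (adjusted p 0.00594). The pyruvate carrier subunit Mpc1 averaged 59.6 CPM in ROS++, against 44.9 CPM in ROS+, a rise of 0.40 ± 0.15 with an adjusted p of 0.0486 that ended without any one of 13 of the 14 libraries (largest adjusted p 0.114). Mpc1 shares 23.1% of its exon bases with 4930506C21Rik, and reads of its pseudogene Mpc1-ps could also be split between them, so its values are uncertain. Its partner Mpc2 averaged 29.3 CPM in ROS++, against 19.6 CPM in ROS+, and passed no comparison. Pdha1 shares 16.1% of its exon bases with Map3k15, and without strand information those reads cannot be assigned.

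Of the regulators of the PDH complex, the kinase gene Pdk4 rose and the phosphatase gene Pdp1 fell in both upper classes against ROS+. The other phosphatase gene, Pdp2, fell in ROS++ but differed by -0.07 ± 0.19 in ROS+++ against ROS+ (adjusted p 0.757). Pdk4 (ENSMUSG00000019577, chromosome 6, 5483351 to 5496309) had 0, 1.73, 0.134, 2.52 and 0.844 CPM in ROS+, from 0, 36, 3, 59 and 18 reads. It had 15.3, 7.14, 8.53, 15.3 and 0.0546 CPM in ROS++ and 13.7, 14.5, 8.67 and 9.45 CPM in ROS+++. The ROS+++ libraries lay above all ROS+ libraries, and ROS++ replicate 5, with 1 read, lay within the ROS+ range. Over the same 5 ROS++ libraries the mural markers summed to 23141, 9617, 9311, 18226 and 7869 CPM. These sums were highest in the 2 libraries highest in Pdk4 and lowest in replicate 5. Replicate 5 was also lowest of its class in the mature astrocyte, radial glia-like, oligodendrocyte lineage and endothelial sums. The neuronal commitment sums of ROS++ were lowest in replicate 1 (1479 CPM) and highest in replicate 5 (2966 CPM). In ROS+++ the mural sums were 51706 to 59360 CPM. The highest of them, in replicate 3, stood beside the lowest Pdk4 level of that class, 8.67 CPM. In ROS+ the highest mural sum, 722 CPM in replicate 1, stood beside 0 Pdk4 reads. The order of the mural sums thus did not follow Pdk4 in these 2 classes. The part of these markers in the Pdk4 values was not tested. Pdk4 rose by 2.02 ± 0.61 in ROS++ against ROS+ (adjusted p 0.0186) and by 2.76 ± 0.65 in ROS+++ against ROS+ (adjusted p 0.00146). The first of these calls ended on the deposited log2 values (adjusted p 0.0904) and with limma-voom (adjusted p 0.131), and its adjusted p was 0.0504 to 0.0547 when any one of ROS+ replicates 1 and 3 and ROS++ replicates 1 and 4 was left out.

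The phosphatase gene Pdp1 (ENSMUSG00000049225, chromosome 4, 11958184 to 11966452) was lower with each step of the gate. It had 43.7, 60.2, 58.7, 59.7 and 40.9 CPM in ROS+ libraries, 30.5, 33.4, 42.0, 27.6 and 21.2 CPM in ROS++ libraries, and 16.0, 20.8, 8.95 and 11.4 CPM in ROS+++. The ROS+++ libraries lay below all others with library totals, while 1 ROS++ library lay within the ROS+ range. Pdp1 fell by 0.76 ± 0.25 in ROS++ against ROS+ (adjusted p 0.0254). It fell by 1.86 ± 0.26 in ROS+++ against ROS+ (adjusted p 8.78e-06) and fell by 1.09 ± 0.26 in ROS+++ against ROS++ (adjusted p 0.00277). The ROS++ against ROS+ call ended without any one of 5 libraries, ROS+ replicates 2, 3 and 4 and ROS++ replicates 4 and 5, with adjusted p of 0.0528 to 0.0637.

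The remaining PDH kinases passed 1 comparison with library totals, and how they differ from Pdk4 was not tested. Pdk2 averaged 47.6, 53.2 and 39.1 CPM and passed no comparison. Pdk1 averaged 15.8, 21.0 and 10.4 CPM, and fell by 1.00 ± 0.35 in ROS+++ against ROS++ (adjusted p 0.0317), though not with TMM factors (adjusted p 0.147). Pdk3 averaged 2.74, 8.40 and 4.29 CPM and passed no comparison, with a ROS++ against ROS+ difference of 1.32 ± 0.51 (adjusted p 0.0612).

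Of the 11 core enzymes of the cycle, the genes of succinyl-CoA synthetase rose against ROS+, Suclg1 and Suclg2 in both upper classes and Sucla2 in ROS+++. Against ROS+, 2 of the 11 rose and 0 fell in ROS++, where 16.4% and 13.2% of all genes did. In ROS+++ against ROS+, 3 rose and 1 fell with library totals, beside 19.2% and 40.0% of all genes. Each of the other 3 scalings gave 6 higher and 0 lower. The shares of all genes were 25.3% and 27.5% with TMM factors and 26.5% and 25.9% with relative log expression factors. They were 23.5% and 30.1% with upper-quartile factors. Suclg2, the beta subunit of the GDP-forming enzyme, had 24.0, 17.3, 23.1, 22.5 and 20.6 CPM in ROS+ libraries, 37.7, 44.2, 39.2, 41.9 and 34.2 CPM in ROS++ libraries, and 39.1, 55.4, 41.2 and 34.2 CPM in ROS+++. Both upper classes lay wholly above ROS+. Suclg2 rose by 0.85 ± 0.18 in ROS++ against ROS+ (adjusted p 0.00190) and by 0.94 ± 0.20 in ROS+++ against ROS+ (adjusted p 0.000520).

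Suclg1, the alpha subunit shared by both forms, had 186, 170, 138, 184 and 181 CPM in ROS+ libraries, 214, 247, 215, 196 and 207 CPM in ROS++ libraries, and 231, 217, 206 and 219 CPM in ROS+++. All libraries of the upper classes lay above ROS+, and the rise was 0.33 ± 0.11 in ROS++ (adjusted p 0.0235) and 0.35 ± 0.11 in ROS+++ (adjusted p 0.0123). The ROS++ call ended without ROS+ replicate 3 (adjusted p 0.0768) and without ROS++ replicate 2 (adjusted p 0.0585). Sucla2, the beta subunit of the ATP-forming enzyme, rose in ROS+++. It had 134, 109, 114, 129 and 137 CPM in ROS+ libraries, 175, 61.4, 110, 137 and 151 CPM in ROS++ libraries, and 168, 181, 191 and 210 CPM in ROS+++. Sucla2 rose by 0.59 ± 0.22 in ROS+++ against ROS+ (adjusted p 0.0271) and by 0.64 ± 0.22 in ROS+++ against ROS++ (adjusted p 0.0258). These calls ended without any one of 4 and 3 libraries, among them ROS+++ replicate 3 (adjusted p 0.0536 and 0.0549) and ROS+++ replicate 4 (adjusted p 0.0698 and 0.0668).

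Idh3a, the catalytic subunit of the NAD-linked isocitrate dehydrogenase, had 381, 265, 254, 294 and 274 CPM in ROS+ libraries, 329, 339, 235, 293 and 301 CPM in ROS++ libraries, and 200, 173, 193 and 189 CPM in ROS+++. The ROS+++ libraries lay below all others with library totals, but not with TMM factors. With library totals Idh3a fell by 0.62 ± 0.13 against ROS+ (adjusted p 0.000542) and fell by 0.65 ± 0.13 against ROS++ (adjusted p 0.000678). With TMM factors the 2 differences were -0.24 and -0.32 and passed neither test (adjusted p 0.161 and 0.0894). Idh3b and Idh3g, the regulatory subunits, averaged 247 and 239 CPM in ROS+++ against 200 and 214 CPM in ROS+. With TMM factors Idh3b rose by 0.68 ± 0.14 (adjusted p 0.000426) and Idh3g by 0.54 ± 0.12 (adjusted p 0.000757) in ROS+++ against ROS+, while with library totals neither passed (adjusted p 0.0569 and 0.210).

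The other core enzymes passed no comparison under all 4 scalings. Citrate synthase Cs averaged 246, 270 and 212 CPM in ROS+, ROS++ and ROS+++, and fell by 0.35 ± 0.10 in ROS+++ against ROS++ with library totals (adjusted p 0.0109) but not with TMM factors (adjusted p 0.940). Fumarase Fh1 averaged 111, 150 and 134 CPM. In ROS+++ against ROS+ it did not pass with library totals (adjusted p 0.252) and rose under the other 3 scalings, by 0.62 ± 0.19 with TMM factors (adjusted p 0.00933). The oxoglutarate dehydrogenase genes Ogdh, at 161, 156 and 164 CPM, and Dlst, at 90.8, 87.4 and 70.3 CPM, passed no comparison. Mdh2 averaged 855, 775 and 745 CPM. Its ROS+++ libraries lay below the ROS+ libraries with library totals, but the difference of -0.20 ± 0.09 did not pass (adjusted p 0.0730). The order turned with TMM factors, at 841 to 986 CPM in ROS+++ and 716 to 836 CPM in ROS+. That difference of 0.18 ± 0.11 did not pass either (adjusted p 0.190). In ROS+++ against ROS++, Mdh2 differed by -0.05 ± 0.09 with library totals and rose by 0.37 ± 0.12 with relative log expression factors (adjusted p 0.0193).

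Of the NADP-linked isocitrate dehydrogenases, both sources of NADPH, the mitochondrial form rose. Idh2, the mitochondrial form, had 18.1, 12.1, 18.6, 17.1 and 22.3 CPM in ROS+ libraries, 39.4, 21.4, 46.3, 33.7 and 35.7 CPM in ROS++ libraries, and 36.9, 35.9, 20.3 and 21.8 CPM in ROS+++. Idh2 rose by 0.94 ± 0.26 in ROS++ against ROS+ (adjusted p 0.00915) and by 0.65 ± 0.27 in ROS+++ against ROS+ (adjusted p 0.0481). In ROS++, 1 library lay within the ROS+ range, and in ROS+++ 2 did, and the ROS+++ call ended without any one of 9 libraries. Idh1, the cytosolic form, averaged 299, 249 and 220 CPM, and fell by 0.43 ± 0.13 in ROS+++ against ROS+ (adjusted p 0.00717) while the difference was -0.06 ± 0.13 with TMM factors (adjusted p 0.752). Aco1, the cytosolic aconitase that also acts as an iron regulatory protein, averaged 72.1, 82.3 and 52.8 CPM, and its fall of 0.71 ± 0.25 in ROS+++ against ROS++ (adjusted p 0.0328) did not pass with TMM factors (adjusted p 0.266).

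Of the malate-aspartate shuttle genes, Mdh1 rose and the transaminases did not. Mdh1 (ENSMUSG00000020321, chromosome 11, 21556787 to 21572367) had 588, 531, 428, 558 and 472 CPM in ROS+ libraries, 806, 830, 647, 803 and 658 CPM in ROS++ libraries, and 837, 759, 796 and 739 CPM in ROS+++. Both upper classes lay wholly above ROS+. Mdh1 rose by 0.54 ± 0.10 in ROS++ against ROS+ (adjusted p 0.000525) and by 0.61 ± 0.11 in ROS+++ against ROS+ (adjusted p 9.59e-05), and the call held under all 4 scalings. The cytosolic transaminase Got1 averaged 69.2, 61.0 and 65.5 CPM and the mitochondrial Got2 18.3, 15.8 and 13.2 CPM, and neither passed a comparison. Got2 shares part of its exon bases with Gm45760, so its values are uncertain too.

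Libraries that did not overlap, in CPM of library totals, gave a view that does not use the model's error but does depend on the scaling. Against ROS+, 7 members lay wholly higher and 0 wholly lower in ROS++, where 12.1% and 10.9% of all tested genes did. ROS+++ had 7 wholly above ROS+ and 8 wholly below, beside 16.8% and 33.2% of all genes. It had 0 wholly above ROS++ and 5 wholly below (Pdp1, Cs, Idh3a, Me1 and Me2), beside 7.48% and 19.5%. With TMM factors the separations above ROS+ stayed, but most of the lower ones ended. Against ROS+, those of Pdhb, Pdhx, Idh3a, Idh1 and Me2 ended, that of Mdh2 turned, and those of Pdp1 and Me1 stayed. Against ROS++, those of Pdp1, Cs, Idh3a and Me2 ended, and only that of Me1 stayed. Pdhx then had 83.1 CPM in ROS+++ replicate 3, against 82.4 CPM in ROS+ replicate 5. Pdp1 had 24.9 CPM in ROS+++ replicate 2, against 20.2 CPM in ROS++ replicate 5. Me1 in ROS+++ stayed below both other classes.

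Ratios of 2 genes within a library do not depend on how libraries are scaled, and 13 were set per kilobase of exon. The ratio of Mdh1 to Mdh2 had medians of 0.416 in ROS+, 0.665 in ROS++ and 0.718 in ROS+++, and both upper classes lay wholly above ROS+. The ratio of Idh1 to Idh2 had medians of 12.8, 5.03 and 5.73, and both upper classes lay wholly below ROS+. The ratio of Pdp1 to Pdk2 had medians of 0.537, 0.331 and 0.191, again with both upper classes wholly below ROS+. These 3 ratios separated ROS+ from both upper classes with no library scaling involved. Each holds a gene already called in both upper classes, Mdh1, Idh2 or Pdp1, and the share of all gene pairs that separate in this way was not computed.

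The other ratios separated fewer classes. Pcx to Pdha1 had medians of 0.110, 0.258 and 0.154, with ROS++ wholly above both other classes. Suclg2 to Sucla2 had medians of 0.103, 0.181 and 0.133, and only ROS++ lay wholly above ROS+. Pdk4 to Pdk2 had medians of 0.0118, 0.107 and 0.197, and only ROS+++ lay wholly above ROS+. The other 7 ratios overlapped in each comparison, among them Got1 to Got2 and Dlst to Ogdh.

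**Figure D4:**
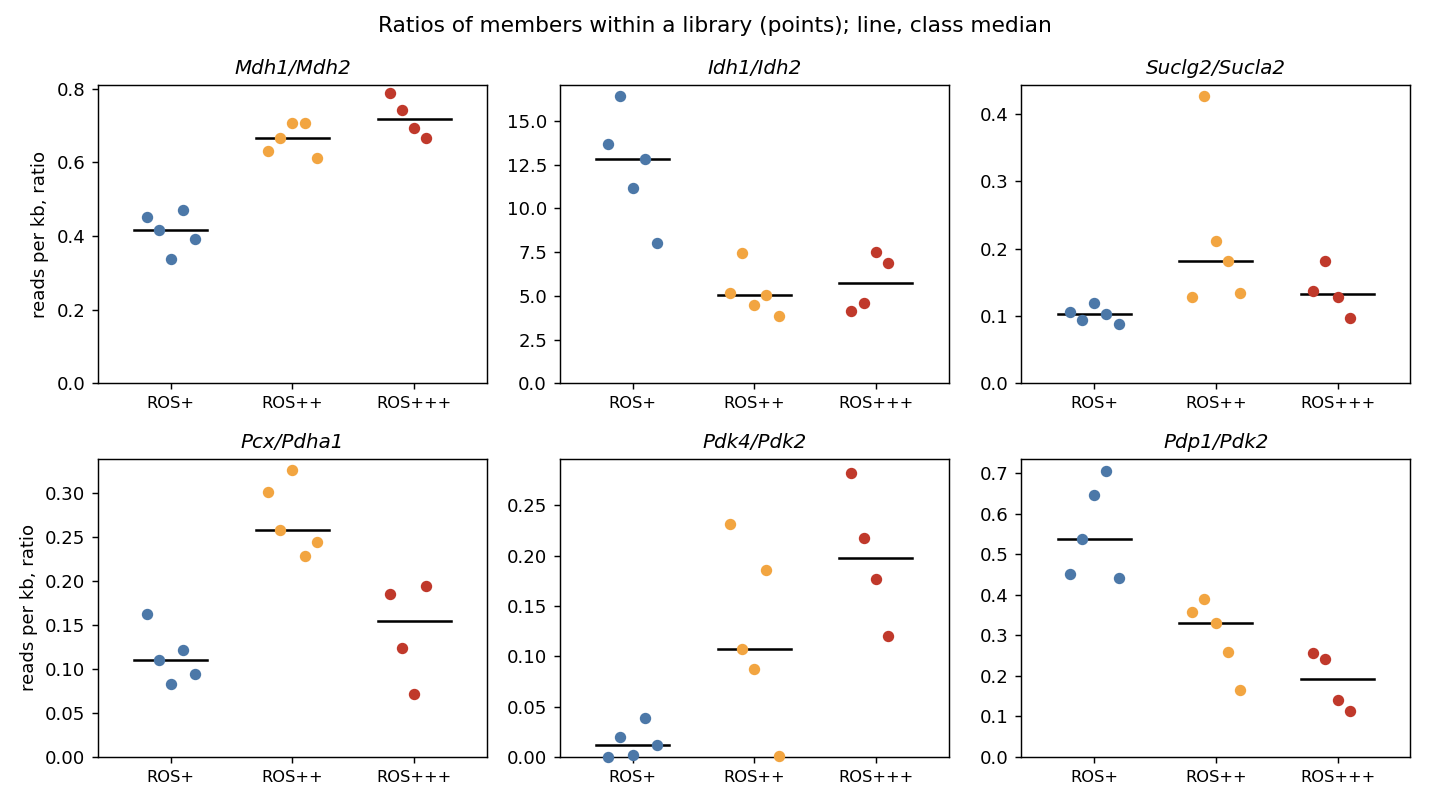
Ratio of reads per kb of 2 genes within each library (points) with the class median (line) for 6 pairs. Mdh1/Mdh2 is higher and Idh1/Idh2 and Pdp1/Pdk2 are lower in every ROS++ and ROS+++ library than in any ROS+ library.

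Other genes of the same pathway, 35 of which were in the table, included mitochondrial carriers and side enzymes with changes of several fold. The count was 8 higher and 4 lower of 35 in ROS++ against ROS+, beside 16.4% and 13.2% of all genes. The glutamate carrier gene Slc25a18 averaged 150 CPM in ROS++, against 15.2 CPM in ROS+, and rose by 3.29 ± 0.30 (adjusted p 2.13e-07), while Slc25a22, another glutamate carrier, averaged 18.2 CPM in ROS++, against 48.8 CPM in ROS+, and fell by 1.35 ± 0.32 (adjusted p 0.00396). Acss1, mitochondrial acetyl-CoA synthetase, rose by 1.38 ± 0.28 and the second PDH phosphatase gene, Pdp2, fell by 0.91 ± 0.18 (adjusted p 0.00122 and 0.000889).

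In ROS+++ the count against ROS+ was 7 higher and 11 lower, beside 19.2% and 40.0% of all genes, and 10 rose and 5 fell with TMM factors, beside 25.3% and 27.5%. Pck2, mitochondrial phosphoenolpyruvate carboxykinase, averaged 133 CPM in ROS+++, against 31.0 CPM in ROS+, and rose by 2.10 ± 0.19 (adjusted p 5.70e-08). Slc25a18 rose by 2.86 ± 0.32 (adjusted p 5.33e-07). The alanine transaminase gene Gpt2 averaged 13.1 CPM in ROS+++, against 90.7 CPM in ROS+, and fell by 2.72 ± 0.20 (adjusted p 3.42e-09). The aspartate-glutamate carrier gene Slc25a13 averaged 0.231 CPM in ROS+++, against 10.6 CPM in ROS+, and fell by 3.18 ± 0.45 (adjusted p 9.28e-06). That ROS+++ mean lies within the 0.143 to 0.236 CPM that 3 reads make in ROS+++ libraries, so the size of its falls is uncertain. Set against ROS++, 3 rose and 9 fell in ROS+++, beside 9.89% and 29.2% of all genes. The counts moved with the scaling, to 4 higher and 7 lower with TMM factors, beside 16.3% and 18.8% of all genes. Relative log expression factors gave 6 higher and 3 lower, beside 18.7% and 17.1% of all genes. Pck2 rose by 1.25 ± 0.19 (adjusted p 6.82e-05) and Pdp2 by 0.84 ± 0.19 (adjusted p 0.00211), while Gpt2 fell by 3.03 ± 0.20 (adjusted p 2.20e-08) and Slc25a13 fell by 3.25 ± 0.45 (adjusted p 2.17e-05).

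The nuclear-encoded respiratory chain, whose complexes take up the reducing equivalents of the cycle, was set beside the members with 40 genes in the table. Of these, 10 rose and 0 fell in ROS++ against ROS+, beside 16.4% and 13.2% of all genes, with the complex I genes Ndufs8 (0.60 ± 0.13) and Ndufs7 (0.46 ± 0.10) having the smallest adjusted p. For ROS+++ against ROS+, 8 rose and 4 fell with library totals, beside 19.2% and 40.0% of all genes, and 25 rose and 0 fell with TMM factors, beside 25.3% and 27.5%. Ndufs7 rose by 0.86 ± 0.10 and the complex III gene Uqcrb by 0.73 ± 0.12 in that comparison with library totals, while the ATP synthase gene Atp5o fell by 0.45 ± 0.10 and the complex I gene Ndufs4 fell by 0.46 ± 0.14. For ROS+++ against ROS++, 2 rose and 5 fell with library totals, beside 9.89% and 29.2% of all genes, and 12 rose and 0 fell with TMM factors, beside 16.3% and 18.8%. There Ndufs7 rose by 0.41 ± 0.10, while Atp5o fell by 0.52 ± 0.10 and Ndufa3 fell by 0.55 ± 0.13.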

How the data were processed

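RNA of sorted GFP-positive cells was measured in 14 libraries of 3 classes. What the authors deposited is a single table of log2 values over 15119 genes, of which 15060 have a symbol in GENCODE mouse annotation M21. STAR, edgeR and build mm10 are named per the submitters' processing notes, while their roles, their versions, the counting tool and the annotation were not given in the sources used here. Per the labels' protocols, cDNA was primed with poly-dT, amplified and sheared, with no strand or molecular identifiers described. The deposited log2 values share 1 lowest value, -4.36. The values were taken back from log2 to the linear scale and the lowest linear value was subtracted. Each library was then divided by its smallest value above 0, which was taken to be 1 read. This gave whole reads within 0.001 for 100% of the values, and reads were scaled to CPM by the total over the listed genes.

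Genes needed 1 CPM in at least 4 libraries, which left 15102. Values were log2(CPM + 1). In R 4.3.3, limma 3.58.1 (with statmod 1.5.0) fitted 1 mean per class to all 14 libraries with a trend and robust moderation and 11 residual degrees of freedom. P-values were adjusted by Benjamini-Hochberg over all tested genes and called under 0.05. The deposited unit is log2, so limma-trend was the main test, and the recovered reads entered limma-voom as an alternative. Fold changes on this scale understate the change of low genes. Alternatives were TMM, relative log expression and upper-quartile factors, a pseudocount of 0.25, the deposited log2 values, no filter, a filter at 5 CPM, limma-voom, only the 2 classes compared, leaving out each library and, added after seeing the data, sets of consecutive library numbers as a block. The fit was tested on simulated data. Between replicates of a class, the chi-square per degree of freedom of the reads was 34.0 to 162, so none was a repeated run. The members and gene lists were chosen with earlier results of these data known. The named genes are all members and, of the other pathway and respiratory chain genes, the 2 with the smallest adjusted p in each direction of each comparison, of which 1 is not reported here. Sequences are from RefSeq on GRCm38.p6, and 31 of the 34 members matched. The genes Sdhaf1, Pck1, Lipt2, Csl and Cox5a were not analysed here.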

Additional observations from a re-analysis of the deposited data

Results flagged for a closer look

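In each class, the highest and lowest library of every member was set against the others by Dixon's criterion, in 102 groups, of which chance flags about 1 in 20. It marked 2 values. The PDH kinase gene Pdk3 stood at 7.27 CPM in ROS+ replicate 5, where the other ROS+ libraries had 0.892 to 2.40 CPM. The isocitrate dehydrogenase subunit gene Idh3g stood at 241 CPM in ROS+ replicate 2, where the other ROS+ libraries had 204 to 211 CPM. Pdk3 passed no comparison.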

How the results depend on the processing

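The count of members that fell in ROS++ against ROS+ was 2 with limma-voom and 0 to 3 with 1 library left out, and the count that rose was 5 to 8 with 1 library left out. In ROS+++ against ROS+, TMM, relative log expression and upper-quartile factors each gave 14 higher and 3 lower, and leaving out 1 library gave 7 to 10 higher and 6 to 9 lower. In ROS+++ against ROS++, the higher count was 7, 8 and 6 with TMM, relative log expression and upper-quartile factors, 2 with limma-voom, 0 with only the 2 classes compared and 0 to 2 with 1 library left out, and the lower count was 2, 2 and 3 with the same factors and 6 to 10 with 1 library left out. The F-test over the classes called 15 to 22 members with 1 library left out.

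With relative log expression factors, 4 changes turned sign: Pdhb to 0.036 and Idh1 to 0.0070 in ROS+++ against ROS+, and Cs to 0.070 and Mdh2 to 0.37 in ROS+++ against ROS++, where Mdh2 became a called rise (adjusted p 0.0193). Mdh2 also turned to 0.28 with TMM and 0.23 with upper-quartile factors. Suclg1 in ROS+++ against ROS++ ran between -0.016 (without ROS++ replicate 4) and 0.066 (without ROS++ replicate 2) with 1 library left out, and was -0.011 without ROS+++ replicate 1. The cause was not tested. The library numbers in the titles run in 5 consecutive sets, which the labels do not call a batch. Across genes, deviations from the class means correlated at -0.022 to 0.23 over 13 pairs of the same set, with a median of 0.084 and 3 pairs over 0.1. Over 52 pairs of different sets they correlated at -0.15 to 0.16, with a median of -0.0089 and 2 pairs over 0.1. Of the 14 libraries, 10 correlated best with their own set. What the libraries of a set share was not tested, and the main fit leaves the sets out. With these sets as a replicate block, a fit chosen after seeing the data, 7 members rose and 3 fell in ROS++ against ROS+, 9 rose and 7 fell in ROS+++ against ROS+, and 2 rose and 7 fell in ROS+++ against ROS++.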
